A study of Mus musculus with 23 samples.

Results

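The 8 genes described here are used as markers of single fields of the mouse hippocampus, and were followed through 23 RNA-seq libraries of 3 neuronal populations. Rgs14, Pcp4, Amigo2 and Map3k15 mark area CA2, and Prox1, C1ql2, Dsp and Tdo2 mark the granule cells of the dentate gyrus. They are set by a list of names with no threshold on a value, drawn up with earlier results of these data known, and are 8 of the 45706 gene IDs in the count table. All 8 passed the filter on low counts, which kept 18823 genes. The question asked of them is which hippocampal fields the RNA of each population comes from.

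The sample titles call the populations CamK, Grik and SST. CamK and Grik are labelled excitatory pyramidal cells and SST somatostatin-positive interneurons. Each was taken from hippocampus of mice whose genotype is labelled WT or SLM2 cKO, a conditional knockout of the RNA-binding protein whose gene symbol is Khdrbs3. There were 4 CamK WT, 3 CamK cKO, 4 Grik WT, 4 Grik cKO, 4 SST WT and 4 SST cKO libraries of polyadenylated RNA. Strain, age, sex, the Cre transgenes and the exons deleted are not given in the sources used here, nor is the way the RNA was taken from the named cells. Nothing says that replicates are separate animals, so p-values measure the spread between these samples, which may be technical.

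CA2 is a small pyramidal field between CA1 and CA3. Its neurons resist the usual forms of synaptic plasticity at their inputs from CA3 and serve social memory. Granule cells of the dentate gyrus receive the input from entorhinal cortex and send mossy fibres to CA3 and to the mossy cells of the hilus. Both are excitatory, so neither set of markers is a somatostatin interneuron set, although Prox1 is also used by interneurons born in the caudal ganglionic eminence (CGE).

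Gene reads per library ran from 87612006 to 112993538, with a median of 91378465. No pair of replicates was alike within counting error, the chi-square per degree of freedom running from 8.79 to 215. Levels are given as CPM, counts per 1000000 gene reads after scaling, and differences as log2 fold changes with standard errors (SE). A gene is called where edgeR's adjusted p was under 0.05. The targeted gene, Khdrbs3, stood at 278 ± 25.1 CPM in cKO against 373 ± 27.0 CPM in WT libraries of CamK (SD, n = 3 and 4) and at 93.8 ± 10.5 against 130 ± 8.31 CPM in SST (n = 4 each). In Grik the libraries labelled cKO held 414 ± 18.02 against 335.5 ± 8.61 CPM in WT (n = 4 each), which goes against the label. Of these differences only that in SST was called, with adjusted p = 0.0309, against 0.114 in CamK and 0.499 in Grik. The SST call was lost with limma-voom and sample quality weights, here called weighted limma-voom (0.0761), with the SST groups fitted alone (0.954) and without SST WT 1 or 5 or SST cKO 3, 4 or 5 (0.0722 to 0.155). The CamK difference was called by DESeq2 (0.00293) and weighted limma-voom (0.0252), and the Grik difference by weighted limma-voom (0.0202). Grik cKO below therefore stands for the libraries labelled cKO. These are RNA pools of many cells, in which fewer cells of a type and less RNA per cell cannot be told apart.

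The stretches of genome around the start sites of the 4 granule cell genes are shown for reference. Each runs from 250 bases before to 50 bases after the start in RefSeq (GRCm38.p6), written on the gene's own strand, with each E-box, the letters CANNTG bound by basic helix-loop-helix factors and the same on both strands, in capitals. RefSeq promoters matched 6 of the 8 members, those of Rgs14 and Map3k15 being the exceptions. For Prox1 and Tdo2 the RefSeq start differs from that of the gene position given below, which lies outside the window.
Prox1 (chr1:190170778-190171077, minus strand): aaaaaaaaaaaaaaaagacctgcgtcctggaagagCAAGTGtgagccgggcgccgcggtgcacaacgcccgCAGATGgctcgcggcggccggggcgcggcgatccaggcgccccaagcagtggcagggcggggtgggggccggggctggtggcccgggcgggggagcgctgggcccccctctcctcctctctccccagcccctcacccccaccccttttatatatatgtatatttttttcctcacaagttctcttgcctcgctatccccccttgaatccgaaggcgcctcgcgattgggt
C1ql2 (chr1:120340332-120340631, plus strand): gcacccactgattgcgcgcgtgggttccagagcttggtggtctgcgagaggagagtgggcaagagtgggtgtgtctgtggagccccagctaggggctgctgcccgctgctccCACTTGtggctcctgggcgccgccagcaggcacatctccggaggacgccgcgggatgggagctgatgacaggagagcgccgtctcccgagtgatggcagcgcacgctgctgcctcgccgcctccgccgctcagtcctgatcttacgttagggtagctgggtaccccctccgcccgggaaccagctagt
Dsp (chr13:38151044-38151343, plus strand): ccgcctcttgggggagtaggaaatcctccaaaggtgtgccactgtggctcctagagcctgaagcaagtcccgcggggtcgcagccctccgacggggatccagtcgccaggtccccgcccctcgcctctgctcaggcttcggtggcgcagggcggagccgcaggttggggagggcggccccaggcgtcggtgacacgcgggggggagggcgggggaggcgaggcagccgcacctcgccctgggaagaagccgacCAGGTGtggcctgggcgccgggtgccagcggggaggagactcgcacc
Tdo2 (chr3:81975679-81975978, minus strand): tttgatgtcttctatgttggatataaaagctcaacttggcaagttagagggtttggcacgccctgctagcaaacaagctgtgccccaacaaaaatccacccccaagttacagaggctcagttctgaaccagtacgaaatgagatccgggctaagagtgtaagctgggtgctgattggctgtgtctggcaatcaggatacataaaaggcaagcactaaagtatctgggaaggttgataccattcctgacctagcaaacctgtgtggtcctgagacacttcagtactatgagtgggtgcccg

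Prox1 held 2 such boxes, C1ql2 and Dsp 1 each and Tdo2 0 in this window. Of the CA2 genes Pcp4 held 1 and Amigo2 0. At least 1 box was found in 72.3% of the 32851 RefSeq promoters of this length. The form CAGATG, counted on either strand and itself an E-box, was in the window of Prox1 alone among the 6 and in 17.2% of all promoters. What part these boxes have in the levels of the members was not tested.

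Rgs14 (ENSMUSG00000052087, chr13:55369732-55384687, plus strand) encodes a regulator of G protein signalling that holds back plasticity in CA2, and in mice it is also present more weakly in CA1. Its level was 175, 179, 241 and 204.5 CPM in CamK WT libraries 2, 3, 4 and 5 and 197, 236 and 181 CPM in CamK cKO 4, 5 and 6. Grik WT 3 to 6 held 81.4, 87.3, 94.9 and 80.4 CPM and Grik cKO 1 to 4 held 82.3, 86.2, 77.0 and 78.7 CPM. SST WT 1, 2, 3 and 5 held 11.9, 15.2, 13.2 and 12.4 CPM and SST cKO 3, 4, 5 and 7 held 13.1, 15.7, 16.9 and 20.5 CPM. Every CamK library was thus above every Grik library, and every Grik library above every SST library. In WT, the log2 fold change was 1.22 (SE 0.116) for CamK against Grik, 3.92 (SE 0.130) for CamK against SST and 2.71 (SE 0.124) for Grik against SST. Their edgeR adjusted p-values were 7.55e-09, 1.34e-17 and 2.07e-15. The libraries labelled cKO gave 1.33 (SE 0.123), 3.63 (SE 0.132) and 2.29 (SE 0.121), all called.

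Amigo2 (ENSMUSG00000048218, chr15:97244125-97247287, minus strand), which encodes a leucine-rich repeat adhesion protein, ordered the populations differently. It stood at 26.5, 31.5, 39.8 and 38.6 CPM in the Grik WT libraries and at 38.6, 34.7, 31.0 and 34.6 CPM in Grik cKO. The CamK WT libraries held 4.19, 4.52, 2.99 and 4.97 CPM and CamK cKO 4.90, 2.88 and 6.22 CPM. SST WT held 4.59, 3.78, 3.76 and 4.14 CPM and SST cKO 3.48, 2.64, 3.59 and 4.77 CPM. All 8 Grik libraries lay above all others, while the CamK and SST values overlapped. In WT, CamK was 8.18-fold lower than Grik (log2 fold change -3.03, SE 0.205, edgeR adjusted p = 4.89e-11), and Grik was 8.37-fold higher than SST (3.07, SE 0.205, adjusted p = 8.39e-12). CamK and SST in WT differed by 0.03 on the log2 scale, with a 95% interval of -0.38 to 0.45 and adjusted p = 0.893. In the libraries labelled cKO the last difference was 0.36 (SE 0.212, adjusted p = 0.151), and it was called without CamK cKO 5 (0.62, adjusted p = 0.0112) and without SST cKO 7 (0.53, adjusted p = 0.0436). Rgs14 and Amigo2, both CA2 markers, were therefore highest in different populations.

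Pcp4 (ENSMUSG00000090223, chr16:96467606-96525793, plus strand) encodes a small calmodulin-binding peptide found in CA2 and also in granule cells. The CamK WT libraries held 10.5, 10.8, 4.40 and 10.96 CPM and CamK cKO 9.05, 4.74 and 14.5 CPM. Grik WT held 7.46, 6.18, 5.53 and 6.80 CPM and Grik cKO 6.39, 6.45, 6.26 and 6.92 CPM. SST WT held 2.25, 1.66, 2.62 and 5.90 CPM and SST cKO 2.01, 1.68, 4.04 and 4.78 CPM. The lowest CamK library in each genotype lay below every Grik library, and SST WT 5, at 5.90 CPM, reached into the Grik range. CamK and Grik in WT were not told apart (log2 fold change 0.50, SE 0.394, edgeR adjusted p = 0.334, 95% interval -0.33 to 1.33). Both were called higher than SST in WT, by 1.56 (SE 0.405, adjusted p = 0.00245) in CamK and by 1.06 (SE 0.403, adjusted p = 0.0299) in Grik. The Grik call was lost without Grik WT 3 or without SST WT 1, 2 or 3 (adjusted p = 0.0603 to 0.0876) and with no filter on low counts (0.0561). In the libraries labelled cKO the differences were 0.53 (SE 0.422, adjusted p = 0.361) for CamK against Grik, 1.59 (SE 0.427, adjusted p = 0.00359) for CamK against SST and 1.05 (SE 0.402, adjusted p = 0.0308) for Grik against SST. That last call was lost without Grik cKO 4 or SST cKO 3 or 4 (adjusted p = 0.0515 to 0.0928) and with no filter on low counts (0.0563).

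Map3k15 (ENSMUSG00000031303, X:159988433-160123351, plus strand), a protein kinase gene, was near the lower limit of what was counted, with 23 to 141 reads per library. The CamK WT libraries held 0.429, 0.842, 0.384 and 0.328 CPM and CamK cKO 0.603, 0.541 and 0.4998 CPM. Grik WT held 0.366, 0.348, 0.424 and 0.270 CPM and Grik cKO 0.351, 0.325, 0.610 and 0.461 CPM. SST WT held 0.771, 0.765, 1.23 and 1.42 CPM and SST cKO 1.19, 1.16, 1.23 and 0.880 CPM. It was the only member with its highest values in SST, above all Grik libraries and overlapping CamK only through CamK WT 3. Set against WT SST on the log2 scale, WT Grik gave -1.57 (SE 0.293, edgeR adjusted p = 6.05e-05) and WT CamK gave -1.08 (SE 0.285, adjusted p = 0.00219). CamK against Grik gave 0.49 (SE 0.298, adjusted p = 0.194). The libraries labelled cKO gave -1.35 (SE 0.288), -1.02 (SE 0.311) and 0.33 (SE 0.314) for the same pairs, and both differences from SST were called.

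**Figure D1:**
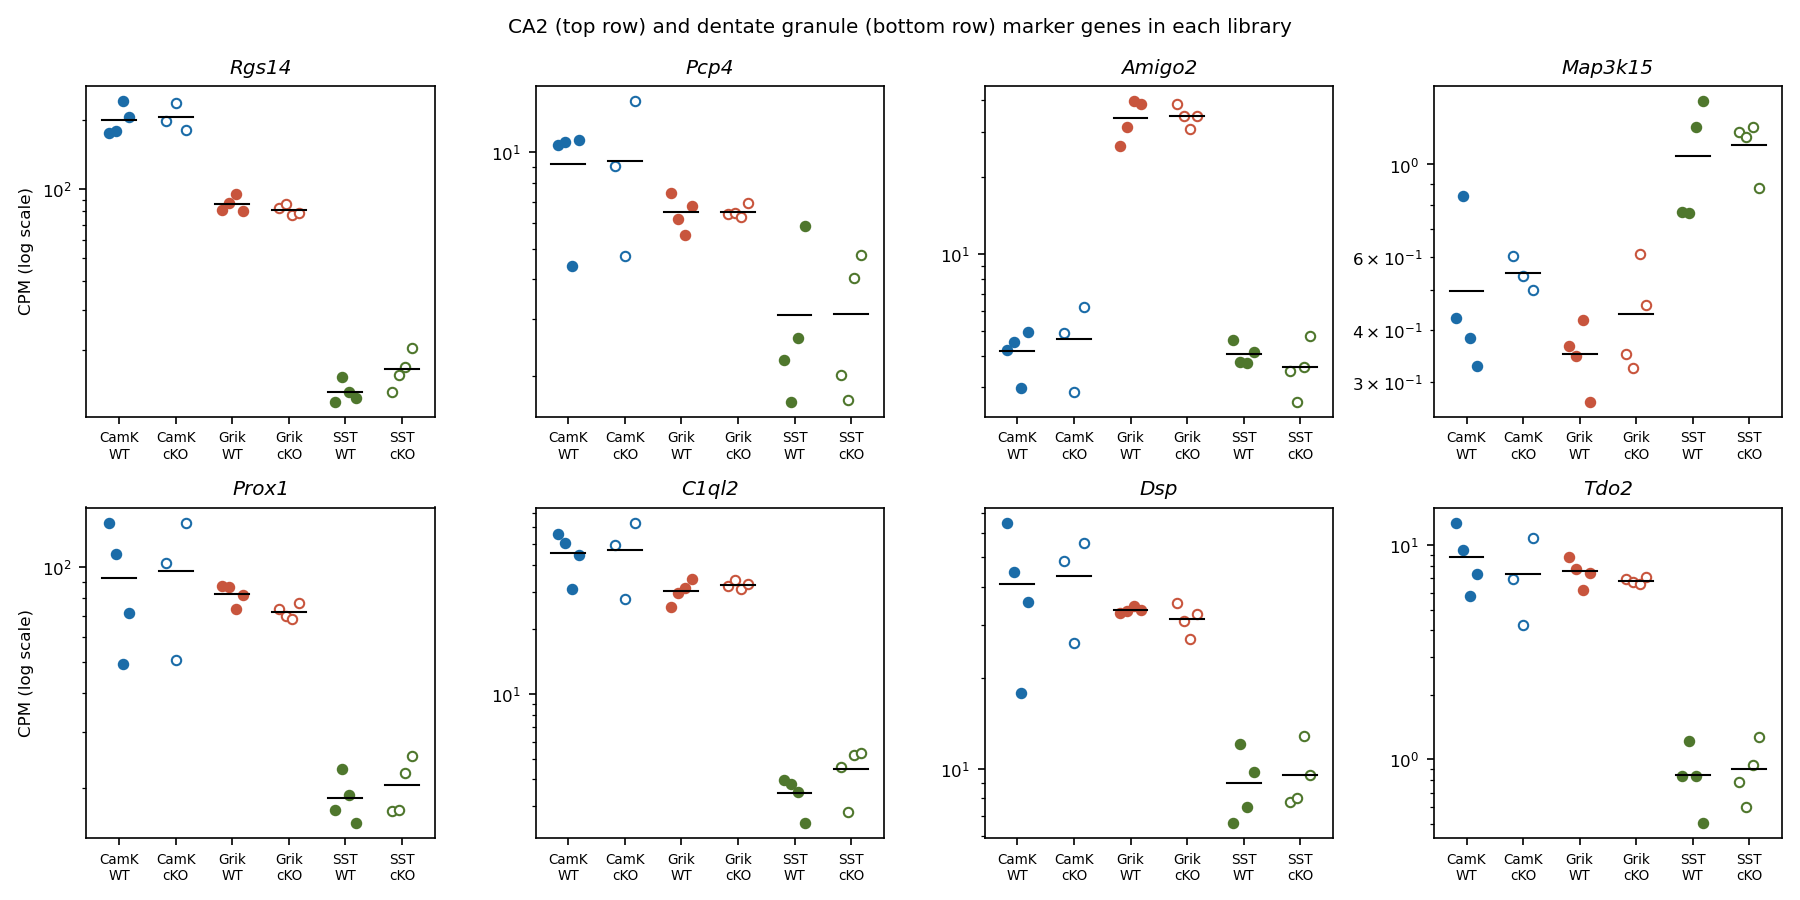
CPM of each member in each library on a log scale, with CA2 genes in the top row and granule cell genes in the bottom row. Each point is 1 library, filled for WT and open for cKO labels, and the bar is the group mean. Rgs14 falls from CamK to Grik to SST, Amigo2 is high in Grik alone, Map3k15 is highest in SST, and the 4 granule cell genes are higher in CamK and Grik than in SST.

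Prox1 (ENSMUSG00000010175, chr1:190118035-190170714, minus strand) encodes the homeobox factor that keeps granule cell identity. It stood at 138.6, 110, 49.2 and 71.4 CPM in CamK WT and at 104, 50.8 and 138.6 CPM in CamK cKO. Grik WT held 87.2, 86.8, 74.0 and 81.7 CPM and Grik cKO 73.8, 70.2, 68.7 and 77.0 CPM. SST WT held 17.0, 22.9, 19.0 and 15.5 CPM and SST cKO 16.9, 17.0, 22.3 and 25.3 CPM. CamK libraries lay on both sides of the narrow Grik range, and all SST libraries were below both. CamK and Grik in WT differed by 0.16 (SE 0.275, edgeR adjusted p = 0.671), with a 95% interval of -0.42 to 0.75. Against SST, WT CamK was 4.97-fold higher (2.31, SE 0.290, adjusted p = 1.11e-06) and WT Grik 4.43-fold higher (2.15, SE 0.289, adjusted p = 2.79e-06).

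C1ql2 (ENSMUSG00000036907, chr1:120340582-120343174, plus strand) encodes a secreted C1q-like protein of mossy fibre synapses. It stood at 55.5, 50.8, 30.8 and 44.5 CPM in CamK WT and at 49.6, 27.9 and 63.0 CPM in CamK cKO. Grik WT held 25.4, 29.6, 31.4 and 34.5 CPM and Grik cKO 31.9, 34.1, 31.0 and 32.4 CPM. SST WT held 3.98, 3.83, 3.50 and 2.50 CPM and SST cKO 4.55, 2.82, 5.20 and 5.34 CPM. The SST libraries were all below the others, and 1 library of each CamK genotype fell within or below the Grik range of its genotype. It was the only granule cell member called between WT CamK and WT Grik, 1.501-fold higher in CamK (0.59, SE 0.219, edgeR adjusted p = 0.0366). The call was lost without CamK WT 2, 3 or 5 or Grik WT 3, 4 or 5 (adjusted p = 0.0554 to 0.107) and with no filter on low counts (0.0716). Against SST, WT CamK was higher by 3.71 (SE 0.247, adjusted p = 4.11e-11) and WT Grik by 3.13 (SE 0.242, adjusted p = 4.47e-10).

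Dsp (ENSMUSG00000054889, chr13:38151294-38198577, plus strand) encodes desmoplakin, a junction protein that links to intermediate filaments. It stood at 65.1, 44.6, 17.8 and 35.5 CPM in CamK WT and at 48.6, 26.0 and 55.7 CPM in CamK cKO. Grik WT held 32.7, 33.4, 34.6 and 33.4 CPM and Grik cKO 35.4, 30.7, 26.8 and 32.5 CPM. SST WT held 6.62, 12.1, 7.48 and 9.77 CPM and SST cKO 7.80, 8.01, 12.9 and 9.56 CPM. The coefficient of variation was 2.37% in Grik WT and 11.5% in Grik cKO, against 48.2% in CamK WT and 35.6% in CamK cKO, and the SST values were apart from both. On the log2 scale the WT groups differed by 0.28 (SE 0.295, edgeR adjusted p = 0.475) for CamK against Grik, 2.18 (SE 0.310, adjusted p = 5.42e-06) for CamK against SST and 1.90 (SE 0.308, adjusted p = 2.78e-05) for Grik against SST.

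Tdo2 (ENSMUSG00000028011, chr3:81957090-81976202, minus strand) encodes a tryptophan-degrading dioxygenase. It stood at 12.7, 9.45, 5.82 and 7.33 CPM in CamK WT and at 6.92, 4.26 and 10.7 CPM in CamK cKO. Grik WT held 8.82, 7.76, 6.17 and 7.43 CPM and Grik cKO 6.94, 6.72, 6.59 and 7.07 CPM. SST WT held 0.840, 1.22, 0.833 and 0.503 CPM and SST cKO 0.781, 0.597, 0.942 and 1.27 CPM. CamK and Grik overlapped in both genotypes and SST was below both. The WT groups gave log2 differences of 0.23 (SE 0.260, edgeR adjusted p = 0.517) for CamK against Grik, 3.38 (SE 0.295, adjusted p = 9.11e-10) for CamK against SST and 3.15 (SE 0.293, adjusted p = 2.60e-09) for Grik against SST.

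In the libraries labelled cKO, the granule cell genes again were all called higher in CamK and in Grik than in SST. Against SST, the log2 fold changes in CamK were 2.26 for Prox1, 3.38 for C1ql2, 2.18 for Dsp and 3.02 for Tdo2, with SE from 0.251 to 0.324. In Grik they were 1.83, 2.85, 1.71 and 2.92, with SE from 0.238 to 0.306. Between CamK and Grik under the cKO label they were 0.43 for Prox1, 0.53 for C1ql2, 0.47 for Dsp and 0.10 for Tdo2, none called by edgeR, with adjusted p from 0.0831 to 0.830. Without CamK cKO 5, C1ql2 (0.80, adjusted p = 0.00605) and Prox1 (0.74, adjusted p = 0.0447) were called in that comparison. With all libraries, DESeq2 called C1ql2 there (0.54, adjusted p = 0.0403), and weighted limma-voom called C1ql2 (0.59, adjusted p = 0.00211) and Dsp (0.57, adjusted p = 0.0401).

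Counted together, 3 of the 8 members were called between WT CamK and WT Grik, where 42.0% of all genes were called: Rgs14 and C1ql2 higher in CamK (20.9% of all genes) and Amigo2 higher in Grik (21.1%). Between WT CamK and WT SST, 7 of 8 were called (60.1% of all genes), 6 higher in CamK (29.5%) and Map3k15 higher in SST (30.5%). Between WT Grik and WT SST all 8 were called (57.3%), 7 higher in Grik (28.1%) and Map3k15 higher in SST (29.2%). Under the cKO label 2 of 8, Rgs14 and Amigo2, were called between CamK and Grik (35.7% of all genes, 17.4% with CamK above and 18.3% with Grik above). Under that label 7 of 8 were called between CamK and SST (56.4%, 26.9% higher in CamK and 29.4% higher in SST) and 8 of 8 between Grik and SST (57.9%, 27.9% higher in Grik and 30.0% higher in SST), with the directions seen in WT. The shares of all genes called are large in each of these comparisons. The median over the 4 granule cell members was 0.26 for WT CamK against Grik, 2.85 for CamK against SST and 2.64 for Grik against SST, where the median over all genes was 0.01, -0.02 and -0.03. For the 4 CA2 members it was 0.49, 0.80 and 1.88. The comparisons share libraries, so they are not independent of each other.

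**Figure D2:**
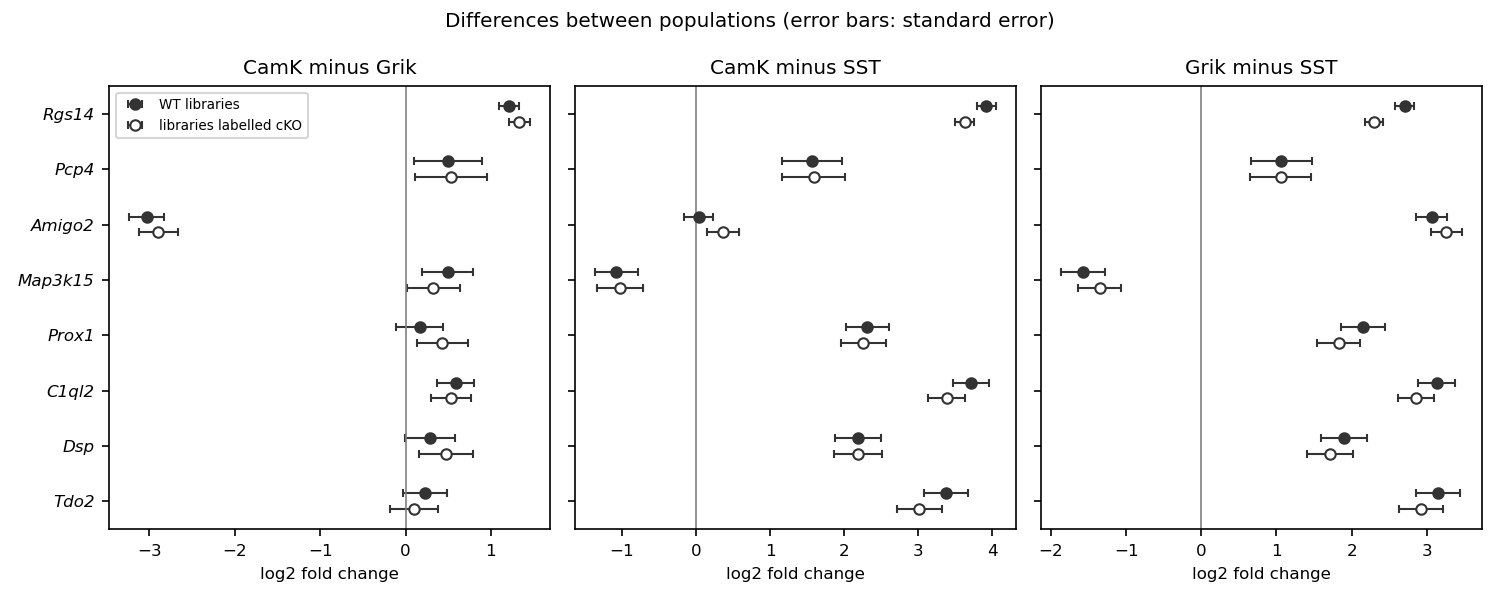
Log2 fold change of each member between populations, 1 panel per pair, with bars of 1 standard error. Filled points are WT and open points are cKO-labelled libraries. Rgs14 and Amigo2 lie on opposite sides of 0 for CamK minus Grik, at 1.22 and -3.03 in WT, the granule cell genes lie between 0.10 and 0.59 there, and all but Amigo2 and Map3k15 are well above 0 for CamK minus SST.

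Per length, Rgs14 had the highest level of the 8 in every group. On the scale of RPKM, CPM per 1000 bases of merged exon, its mean was 47.1 in CamK WT, then 20.3 for Grik WT, and 3.11 for SST WT. In CamK WT it was followed by C1ql2 at 22.7, Prox1 at 11.01, Pcp4 at 8.93, Dsp at 4.22, Tdo2 at 2.28, Amigo2 at 1.32 and Map3k15 at 0.114 RPKM. In Grik WT the order was Rgs14, C1ql2 at 15.1, Amigo2 at 10.8, Prox1 at 9.82, Pcp4 at 6.33, Dsp at 3.47, Tdo2 at 1.94 and Map3k15 at 0.0809 RPKM. In SST WT, Rgs14 was followed by Pcp4 at 3.03, Prox1 at 2.22, C1ql2 at 1.73, Amigo2 at 1.29, Dsp at 0.931, Map3k15 at 0.241 and Tdo2 at 0.219 RPKM. Neighbours in these orders lay closer than the sum of their SDs from Prox1 down to Amigo2 in CamK WT, for Amigo2 and Prox1 in Grik WT, and in SST WT from Rgs14 down to Dsp and for Map3k15 and Tdo2, so their order there is not settled.

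The level left in SST differed from member to member. Mean SST WT levels were 7.61% of CamK WT and 11.4% of Grik WT for C1ql2, and 9.62% and 11.3% for Tdo2. They were 20.1% and 22.6% for Prox1 and 22.0% and 26.8% for Dsp. Among CA2 genes they were 6.60% and 15.3% for Rgs14, 33.9% and 47.8% for Pcp4, 97.6% and 11.9% for Amigo2, and 211% and 297% for Map3k15. As a measure of excitatory RNA in the SST libraries, Slc17a7, the vesicular glutamate transporter, was at 8.72% and 5.32%, Camk2a at 17.9% and 15.9% and Neurod6 at 4.82% and 3.11%. Rgs14, C1ql2 and Tdo2 lay within the range of these 3 genes against both populations, and Prox1, Dsp, Pcp4 and Map3k15 lay above all 3. Amigo2 lay above them against CamK and within their range against Grik. What part excitatory RNA has in the SST values was not tested. The 8 CGE interneuron genes, from a lineage that uses Prox1, summed to 311 to 407 CPM in SST WT, to 397 to 485 CPM for CamK WT and to 332 to 467 CPM for Grik WT, but different genes made up these sums. Cck, a neuropeptide gene, averaged 365 CPM in CamK WT and 299 CPM in Grik WT but 15.3 CPM in SST WT, and Reln, the gene of the secreted protein reelin, 8.72, 3.97 and 276 CPM in the same order. Means in that order were 14.9, 35.8 and 58.1 CPM for Nr2f2, 0.456, 3.001 and 10.8 CPM for Htr3a and 0.348, 10.5 and 0.610 CPM for Vip, so the like sums do not show like levels of the listed genes.

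Across the 7 CamK libraries the granule cell genes varied together. The highest CamK library was 2.82-fold above the lowest for Prox1, 2.26-fold for C1ql2, 3.65-fold for Dsp and 2.99-fold for Tdo2, where across the 8 Grik libraries these ratios were 1.27, 1.36, 1.32 and 1.43. Pcp4 had ratios of 3.28 in CamK and 1.35 in Grik, Amigo2 2.16 and 1.5, Rgs14 1.38 and 1.23, and Map3k15, with the widest spread in Grik of the 8, 2.57 and 2.26. CamK WT 4 and CamK cKO 5, 1 from each genotype, held the 2 lowest CamK values for 6 of the 8 members, namely all 4 granule cell genes, Pcp4 and Amigo2. The same 2 libraries held the 2 highest CamK values for Rgs14. Over all 18823 genes, they were the 2 lowest for 7.06% and the 2 highest for 6.10%, and the libraries were singled out after their values were seen. Of 12 other granule cell genes, 9 had these libraries lowest, as did 3 of 15 other CA2 genes, 3 of 8 CGE interneuron genes, 2 of 6 CA3 genes and 1 of 6 hilar mossy cell genes, and each of the 4 CA1 genes reported here had them highest. The summed level of those CA1 genes (Wfs1, Mpped1, Fibcd1 and Pou3f1) was 1531 CPM in CamK WT 4 and 1668 CPM in CamK cKO 5, against 1006 to 1338 CPM in the other 5 CamK libraries. Of 20 non-neuronal genes, 0 had these libraries both lowest or both highest. The part that the share of CA1 cells or of RNA from the dentate gyrus has in these values was not tested.

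Without these 2 libraries, the comparison of CamK with Grik called more members. In WT, Dsp was then called higher in CamK (0.54, edgeR adjusted p = 0.0417), where 37.6% of all genes were called in place of 42.0%. Under the cKO label Prox1 (0.75, adjusted p = 0.00621), C1ql2 (0.81, adjusted p = 0.00113) and Dsp (0.74, adjusted p = 0.0146) were then called higher in CamK, which made 5 members called in place of 2, where 31.7% of all genes were called in place of 35.7%. Leaving them out was chosen after their values were seen, and removes low values of CamK alone.

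**Figure D3:**
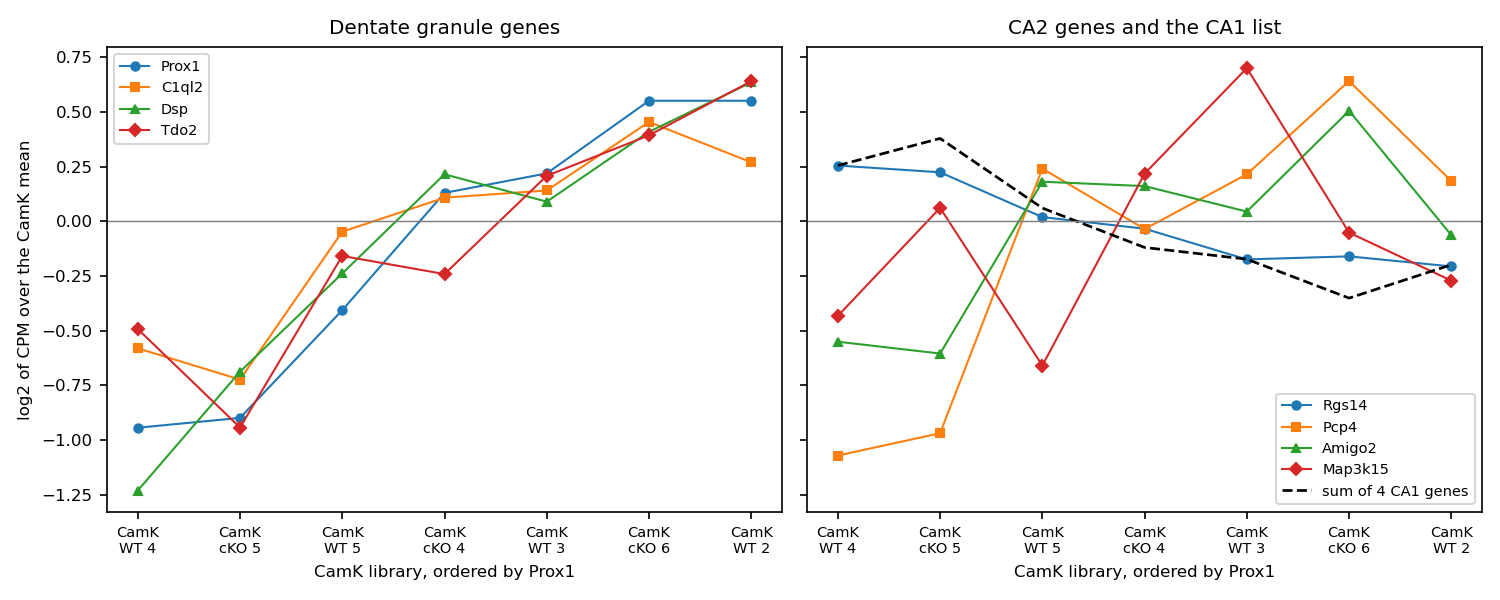
Log2 of each member's CPM over its mean in the 7 CamK libraries, which are ordered from left to right by Prox1, with granule cell genes at left and CA2 genes at right. The dashed line is the summed level of 4 CA1 genes on the same scale. CamK WT 4 and cKO 5 are lowest for the 4 granule cell genes, Pcp4 and Amigo2, and highest for Rgs14 and the CA1 sum.

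The study compares genotypes within each population, and none of these genes was called between them by edgeR. In each population 0 of the 8 members passed the threshold, against 0.0106% of all genes in CamK, in Grik and in SST alike. The values of both genotypes overlapped for all 8 members in each population, as they did for most genes: the share without overlap was 6.75% for CamK, 4.59% for Grik and 2.70% for SST. DESeq2 and weighted limma-voom also called 0 members, where both called few genes of any kind. The share of genes called by DESeq2 was 0.085% for CamK, 0.0744% for Grik and 0.0585% for SST. With weighted limma-voom these shares were 0.0319%, 0.207% and 0%. At an unadjusted p under 0.05 edgeR gave 1 member in 1 population, Rgs14 in SST. Over all 18823 genes it gave 1327 in CamK, 919 in Grik and 1102 in SST. The Rgs14 difference was 0.33 (SE 0.118, adjusted p = 0.833, 95% interval 0.08 to 0.58) between the SST libraries labelled cKO and WT. Rgs14 rose from SST cKO 3 to 4, 5 and 7, where Slc17a7, Camk2a and Neurod6 summed to 716.5, 810.7, 927.3 and 1017 CPM. In SST WT they summed to 745 to 878 CPM. Non-neuronal sums in these cKO libraries were 504, 308, 1076 and 1202 CPM, against 367 to 797 CPM in SST WT. The part of these genes in the difference was not tested. For the granule cell genes the differences lay between -0.27 and 0.09 in CamK, between -0.19 and 0.10 in Grik, and between 0.09 and 0.38 in SST. The widest 95% interval was that of Pcp4 in CamK, from -0.85 to 0.93. These SEs and intervals rest on 1 estimate of spread per gene over all 23 libraries, so they do not show each population's own spread. The SE of Dsp was 0.295 in Grik and 0.317 in CamK. Its coefficient of variation was 2.37% in Grik WT and 48.2% in CamK WT.

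The effects of genotype were also compared between populations, as the difference of 2 log2 fold changes. None of the 8 members was called by edgeR for CamK against Grik (0.00531% of all genes called), CamK against SST (0%) or Grik against SST (0.0106%). For CamK against SST, where no gene was called, 1477 genes had an unadjusted p under 0.05, and DESeq2 called 14 genes and weighted limma-voom 1. Rgs14 alone of the members had an unadjusted p under 0.05 in any of them, with a difference of -0.41 (SE 0.165, 95% interval -0.76 to -0.07) for Grik against SST that did not pass the adjusted threshold. Of all 18823 genes, 727 had an unadjusted p under 0.05 for Grik against SST and 1223 for CamK against Grik.

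**Figure D4:**
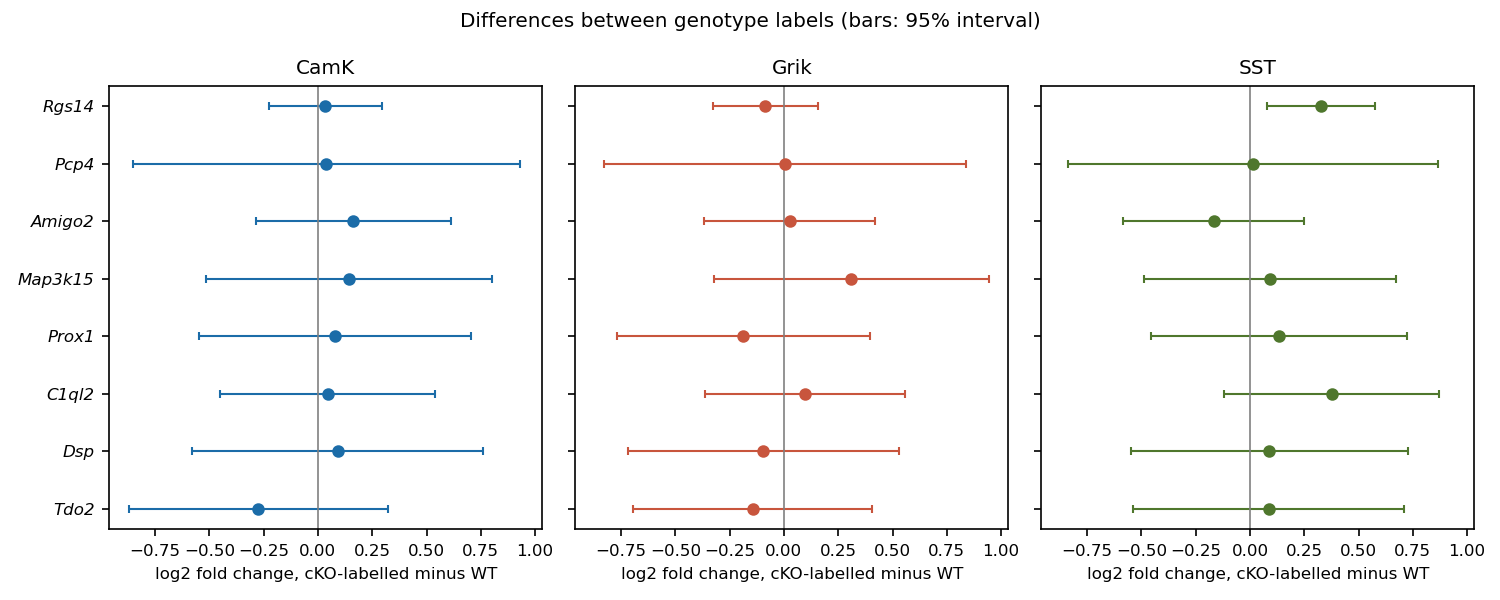
Log2 fold change between libraries labelled cKO and WT for each member in each population, with 95% intervals. The intervals use 1 estimate of spread per gene over all 23 libraries, not the spread of each population alone. All intervals include 0 except that of Rgs14 in SST, which runs from 0.08 to 0.58 before adjustment over all genes.

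Other genes of the same fields were described by count, to be read against the shares of all genes called: between WT CamK and WT Grik these were 20.9% with CamK above and 21.1% with Grik above. Of 15 other CA2 genes, 3 were called higher in WT CamK than in WT Grik and 10 lower, with a median of -0.80, so the higher count is near the share of all genes. Ccdc3 was lower in CamK by 2.26 on the log2 scale (6.34 ± 1.49 against 30.4 ± 4.16 CPM, SD, n = 4 each), Vit by 2.25 (1.40 ± 0.186 against 6.65 ± 0.742 CPM) and Vcan, a matrix proteoglycan, by 1.56 (0.740 ± 0.544 against 2.19 ± 0.312 CPM). These 3 have the direction of Amigo2. The 3 called higher in CamK, named after their values were seen, have that of Rgs14: Cacng5 (1.19, 7.36 ± 2.24 against 3.22 ± 0.482 CPM), Ntf3 (0.84, 4.91 ± 1.35 against 2.74 ± 0.266 CPM) and Ptpn5 (0.62, 110 ± 13.7 against 71.3 ± 9.29 CPM). Against SST, 9 of the 15 were called higher and 3 lower in Grik (28.1% and 29.2% of all genes), and 6 higher and 3 lower in CamK (29.5% and 30.5%).

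Of 12 other granule cell genes, 5 were called higher in WT CamK than in WT Grik and 2 lower (20.9% and 21.1% of all genes), with a median of 0.50. Calb1, a calcium buffer that CA1 cells and interneurons also use, was higher in CamK by 1.57 (203 ± 41.3 against 68.3 ± 8.12 CPM), and Lct, the lactase gene, by 0.97 (80.4 ± 16.4 against 41.0 ± 1.26 CPM). Il16, a cytokine precursor, was lower in CamK by 2.40 (25.5 ± 8.12 against 134.5 ± 8.23 CPM). Against SST, 8 of the 12 were called higher in CamK and 2 lower (29.5% and 30.5% of all genes), and 8 were called higher in Grik and 3 lower (28.1% and 29.2%).

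Markers of the cells that neighbour the granule cells were also counted. All 6 hilar mossy cell genes were called lower in WT CamK than in WT Grik, as were 21.1% of all genes, with a median of -2.31. Calb2, the calcium buffer calretinin, stood at 12.9 ± 3.88 CPM in CamK WT and 331 ± 15.6 CPM in Grik WT, a log2 difference of -4.68 (SE 0.340, edgeR adjusted p = 2.03e-09). The mossy cell genes summed to 45.6 to 60.5 CPM for CamK WT, to 358 to 400 CPM for Grik WT, and to 59.8 to 81.0 CPM for SST WT. Most of the sum in Grik WT was Calb2, so the gap between these sums is largely that of Calb2. Against WT SST, 5 of the 6 were called higher in WT Grik and 1 lower (28.1% and 29.2% of all genes). Of 4 immature granule cell genes, 3 were also called lower in WT CamK than in WT Grik, against the same 21.1%. Among them were Igfbpl1 (0.94 ± 0.57 against 2.34 ± 0.314 CPM) and Dcx (9.25 ± 1.03 against 18.3 ± 3.69 CPM). Both had their highest WT mean in SST, at 3.33 ± 2.22 and 24.3 ± 4.33 CPM. The 4 genes summed to 15.8 to 21.1 CPM for CamK WT, 25.6 to 33.5 CPM for Grik WT and 29.8 to 40.7 CPM for SST WT.

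As a check of the labels, the 4 CA1 genes reported here were all called higher in WT CamK than in WT Grik (median 4.12, 20.9% of all genes). All 6 CA3 genes were called lower there (median -2.24, 21.1% of all genes). All 5 somatostatin interneuron genes were called higher in WT SST than in WT CamK (30.5% of all genes) and WT Grik (29.2%). Sst itself ran widely across the SST WT libraries, from 159 to 1720 CPM. Non-neuronal genes also differed between WT CamK and WT Grik, and 15 of 20 were called lower in CamK, against 21.1% of all genes. Their sum ran from 156 to 245 CPM for CamK WT, from 739.5 to 983 CPM for Grik WT, and from 367 to 797 CPM for SST WT, and none of them was at 0 in every library. The part of these genes in the differences between populations was not tested.

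**Figure D5:**
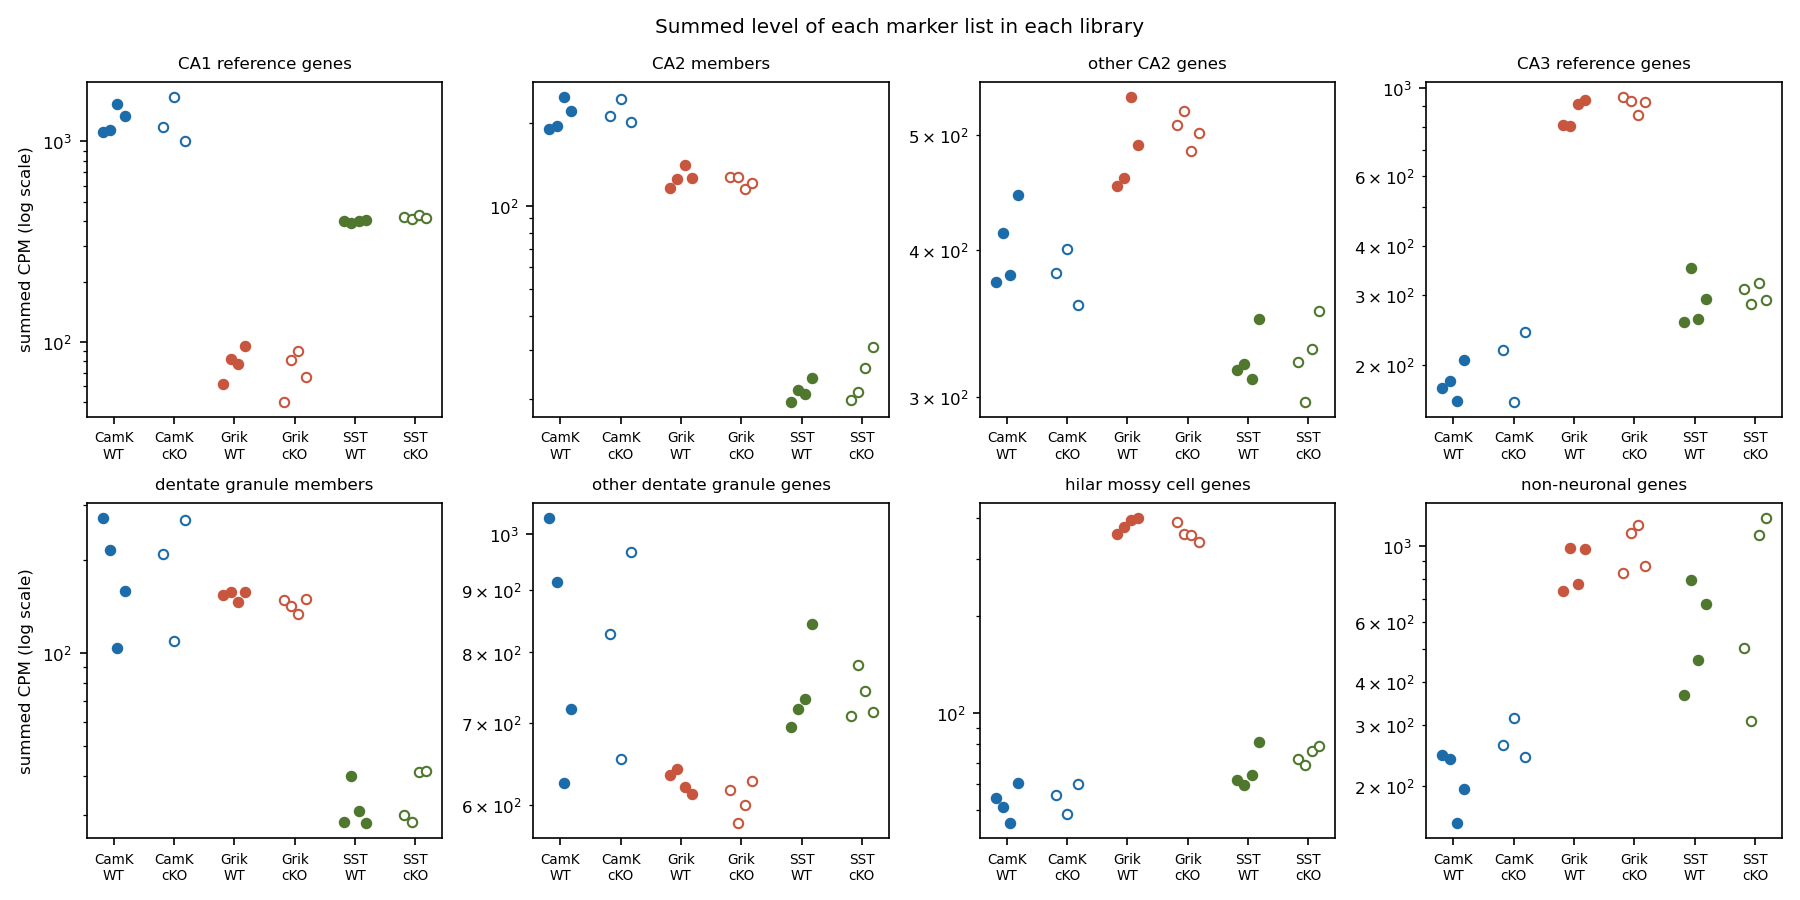
Summed CPM of each marker list in each library, on log scales, filled for WT and open for cKO labels. CA1 genes are highest in CamK, CA3 and mossy cell genes in Grik, and the granule cell members overlap between CamK and Grik with the wider spread in CamK.

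The members' profiles over the 23 libraries were compared by the root-mean-square difference of centred log2 CPM, a description over libraries that share populations. Among the members, Dsp and Prox1 were closest at 0.206, followed by C1ql2 and Tdo2 at 0.299, and Rgs14 was nearer to C1ql2 (0.490) than to Pcp4 (1.06) or Amigo2 (1.87). Of 12180 other genes with a mean of at least 1 CPM, those nearest to Prox1 were Fam160a1 (0.227) and Maml2 (0.311), and to C1ql2 Rasl10a (0.268) and Wnt7b (0.303). Nearest to Dsp were Lamp5 (0.351) and Rfx3 (0.352), and to Tdo2 Vwa3b (0.253) and Bhlhe22 (0.293). For the CA2 genes they were Ankrd33b (0.216) and Kcnip3 (0.227) for Rgs14, Adamts9 (0.267) and Shisa2 (0.318) for Amigo2, Rflnb (0.387) and Kcnn3 (0.396) for Pcp4, and Sesn3 (0.305) and Tenm1 (0.316) for Map3k15. Over the 12 WT libraries alone, both nearest genes stayed the same for Dsp, 1 of 2 for Rgs14, Amigo2, Prox1 and Tdo2, and 0 of 2 for Pcp4, Map3k15 and C1ql2.

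Of the 8 members, 5 share exonic sequence with another gene, and no source used here gives the strand setting of the counts, which leaves those 5 uncertain to that extent. Map3k15 overlaps Pdha1 on the other strand, a gene at 389 to 449 CPM in the group means, so even a small share of its reads would be large beside the 0.352 to 1.12 CPM of Map3k15. Prox1 overlaps Prox1os (0.464 to 4.18 CPM) and Amigo2 overlaps Pced1b (2.40 to 5.21 CPM), both on the other strand and both below the member's own mean in every group, though Pced1b came near it in CamK and SST. Igsf5, on the strand of Pcp4, was at most 0.115 CPM, and Gm10129, opposite Dsp, at most 0.0916 CPM. Rgs14, C1ql2 and Tdo2 share no exon with another gene in that annotation.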

How the data were processed

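Polyadenylated RNA of 23 hippocampal libraries was measured. The authors deposited whole-number read counts per Ensembl gene. The submitters' processing notes name Trimmomatic, STAR and GRCm38, with versions, annotation and strand setting not given in the sources used here. Summary rows that name no gene held 12.4 to 18.4% of reads and were left out. Of 45706 gene IDs, 45143 matched a symbol in GENCODE M21 (GRCm38), the source of positions and exon lengths. Samples were grouped by their titles.

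All 23 libraries were fitted together in R 4.3.3 with edgeR 4.0.16 (filterByExpr, 18823 genes, TMM scaling, robust quasi-likelihood test, 17 residual degrees of freedom), with Benjamini-Hochberg adjustment over all genes and a threshold of 0.05. The groups shared 1 estimate of spread per gene, so SEs, intervals and p-values do not show the spread of a single group. CPM values use TMM scaling, RPKM values divide them by merged exon length, and log2 profiles used a prior count of 2. At this depth counting error is small except for Map3k15 and Tdo2 in SST. The alternatives tried were scaling by relative log expression, no filter on low counts, a filter of 1 CPM or more in 3 or more libraries, DESeq2 1.42.0, limma-voom with sample quality weights (limma 3.58.1; the test and the weights change together), the compared groups alone, a replicate block, each replicate left out, and, added after the data were seen, CamK WT 4 and cKO 5 left out together.

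The members and lists were chosen with earlier results of these data known, and 1 gene of the CA1 list is not reported here. All 8 members are named in every comparison, and of other lists up to 3 genes by absolute log2 fold change among those called in WT CamK against Grik with a mean of at least 1 CPM. The CA1, CGE interneuron and pan-excitatory genes and Sst, Cacng5, Ntf3 and Ptpn5 were named outside this rule, after their values were seen. Tested on simulated counts, the edgeR fit recovered 95.5% of 200 changed genes at 2-fold for WT CamK against Grik (18314 genes), and for cKO against WT 87.5% in CamK (18326 genes), 94.0% in Grik (18304 genes) and 92.0% in SST (18340 genes), with 3.16 to 5.91% false calls. The changed genes were drawn from those with a mean of at least 1 CPM. Each simulated gene had the same spread in all groups, unlike the members here. These shares therefore do not say how likely a change in a given member was to be called.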

Additional observations from a re-analysis of the deposited data

Results flagged for a closer look

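Pcp4 in CamK WT 4 stood at 4.40 CPM, far below the nearest of the other 3 CamK WT libraries at 10.5 CPM, with a gap of 0.935 of the group's range. Of 40 groups of 4 libraries tested in this way for the 8 members, 1 was marked, where chance marks about 5%, or 2 groups. CamK WT 4 is also the lowest CamK WT library for the granule cell members and Amigo2.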

How the results depend on the processing

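Of 1648 alternative values of the members' log2 fold changes, 1619 kept their side of the threshold, 17 lost a call, 12 gained a call and 0 called values changed sign, while 111 uncalled values did. The members called under the cKO label for CamK against Grik numbered 2 (35.7% of all genes called), but 4 with weighted limma-voom (44.6%), 5 without CamK WT 4 and cKO 5 (31.7%), and 2 to 4 with 1 replicate left out, the 4 being without CamK cKO 5 (31.5%). Over all other comparisons the count of members stayed within 1.5 times its value. With 1 replicate left out it was 2 to 3 for WT CamK against Grik (38 to 41.4% of all genes called). It was then 7 for WT CamK against SST (56.9 to 58.6%) and 0 for each comparison of genotypes (at most 0.0479%).

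Counts over all genes were small and moved in the comparisons of cKO with WT. In CamK 2 genes were called, against 16 with DESeq2, 6 with weighted limma-voom, 4 with the replicate block, 1 with the compared groups fitted alone and 1 to 4 with 1 replicate left out. In Grik 2 were called, against 14, 39 and 5 with DESeq2, weighted limma-voom and the groups alone, and 1 to 9 with 1 left out. In SST 2 were called, against 1 with no filter, 11 with DESeq2, 0 with weighted limma-voom, 0 with the groups alone and 0 to 2 with 1 left out. The difference of genotype effects between CamK and Grik called 1 gene, against 11 with DESeq2, 0 with the replicate block, 0 without CamK WT 4 and cKO 5 and 0 to 2 with 1 left out. That between CamK and SST called 0, against 14 with DESeq2, 1 with weighted limma-voom and 0 to 1 with 1 left out, and that between Grik and SST called 2, against 4 with DESeq2 and 2 to 3 with 1 left out. The causes were not tested.

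In 6 same-numbered pairs of WT and cKO libraries, the correlations of their deviations from the group means ran from -0.0999 to 0.129, with 1 over 0.1. Between populations, 29 same-numbered pairs had a median of 0.0129 (3 over 0.1), against -0.00264 (5 over 0.1) for 147 pairs of different numbers. The numbers were therefore not used to pair samples, and their meaning is not given in the labels. With the replicate block the only member call that changed was Pcp4 in WT Grik against SST (adjusted p = 0.0820). Without a scaling factor 4 of 48 group levels moved by more than their SD. Depth limits Map3k15 most, at 23 to 141 reads.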
